A study of Mus musculus with 14 samples.

Results

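The 39 genes described here encode the machinery of macroautophagy and its mitochondria-directed form, mitophagy. They were chosen by name, with earlier results of these data known, and run from the initiation kinase to the lipidated LC3 and GABARAP proteins, with cargo receptors and mitophagy genes added. All 39 have a row among the 34452 mouse genes of the count table, and all 39 passed the filter on low counts. RNA came from the retinal pigment epithelium (RPE), the pigmented layer behind the photoreceptors, of 7 rd1 mice on postnatal day 20. The rd1 allele of Pde6b removes a rod phosphodiesterase subunit, and both groups carry it, so every eye had a degenerating retina. Control eyes were given an adeno-associated virus (AAV) in which the RPE promoter Best1 drives green fluorescent protein (GFP). The fellow eyes, called Nrf2 eyes, were given the same GFP vector and a second AAV in which Best1 drives human Nrf2, the transcription factor encoded by NFE2L2 that turns on antioxidant and detoxifying genes. The capsids of the vectors differed, and no control eye had an added vector in place of Nrf2, so the transgene and the added vector cannot be told apart.

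In macroautophagy a membrane sheet grows around part of the cytoplasm, closes into an autophagosome and fuses with the lysosome. A kinase complex starts the process, a lipid kinase complex marks the site, transfer proteins feed the membrane, and a conjugation system attaches LC3 and GABARAP proteins to it, where cargo receptors dock. The RPE does not divide and takes up shed photoreceptor outer segments every day, and part of this machinery, including LC3 conjugation, is also used to process those phagosomes. RNA levels say nothing of the rate at which cargo moves through the pathway.

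Total estimated counts were between 16548349 and 50543008 per library, and 183 was the lowest count of any of the 39 genes in any library. Gene values and marker sums below are normalized CPM (counts scaled to a common library total of 1e+06), adjusted by the trimmed mean of M-values (TMM). Each group had n = 7 eyes. The CPM of the vector transcript, of genes overlapping a member and of a pseudogene copy were not adjusted by TMM. Control 3 and Nrf2 4 stood apart, because the vector transcript was at 1163 CPM in both, against 1.12 to 175 CPM in the other controls and 4577 to 8711 CPM in the other Nrf2 eyes. They were also the closest of all 91 pairs of libraries, with a median absolute log2 difference of 0.079 between them against 0.141 for the next closest pair. Results that passed the threshold over 7 mice or without mouse 4 are therefore also given without mice 3 and 4. The defining RPE markers were present in every library, with a summed level over 14 genes of 20510 to 37970 CPM in the controls and 24330 to 38970 CPM in the Nrf2 eyes, and 1 of the 14 passed as lower in the test used below. The 8 cone markers summed to 41.4 to 897 CPM in the controls and 18.02 to 94.8 CPM in the Nrf2 eyes, and were lower in the Nrf2 eye of all 7 mice. Of these 8, 2 passed as lower and 0 as higher in the same test. The 8 rod markers summed to 20.2 to 445 CPM in the controls and 7.65 to 89.98 CPM in the Nrf2 eyes, and were lower in 6 of 7 mice. The 6 surface epithelium markers summed to 1586 to 50600 CPM in the controls and 2036 to 22410 CPM in the Nrf2 eyes, and were also lower in 6 of 7 mice. So were the 12 markers of inner retina and Muller glia, at 2534 to 4644 CPM in the controls and 2812 to 3846 CPM in the Nrf2 eyes. Of these 12, Rlbp1 is also among the 14 RPE markers, so their sum does not stand for retina alone. In such bulk samples fewer cells of a type and less RNA per cell cannot be told apart, and the part of these markers in the results was not tested.

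The question put to these genes was whether added Nrf2 changed their RNA in the RPE. Only Gabarapl2 and Optn passed the threshold, an adjusted p below 0.05 in edgeR's paired quasi-likelihood test with Benjamini-Hochberg adjustment over 16289 genes. Both were higher in the Nrf2 eyes, by 1.47-fold and 1.52-fold. They are 5.13% of the 39 members, and 3.43% of all genes tested passed the same threshold. No member passed as lower, against 0.491% of all genes, while 2 members, Rb1cc1 and Atg9a, were lower at an unadjusted p below 0.05. DESeq2 called 6 members, all higher, beside 11.9% of all genes in either direction and 7.6% as higher. These were Gabarapl2, Optn, Map1lc3b, Ulk2, Pink1 and Bnip3. DESeq2 called more false genes than the other tools in simulated data, so its added calls are less certain. Voom in limma called 9, beside 15.9% of all genes, and 1 of these 9, Rb1cc1, was lower. The other 8, all higher, were Gabarapl2, Optn, Ulk2, Pink1, Bnip3, Gabarapl1, Calcoco1 and Fundc1. The threshold was passed by 0 of 5 initiation genes, 0 of 6 lipid kinase genes, 0 of 5 membrane supply genes and 0 of 10 conjugation genes, then by 1 of 5 LC3 and GABARAP genes, 1 of 4 cargo receptors and 0 of 4 mitophagy genes.

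The fitted log2 fold changes of the 39 members had a median of 0.13, beside -0.04 over all genes tested. Of the members, 27 were fitted higher and 12 lower, so 69.2% were above 0 against 45.2% of all genes. An unadjusted p below 0.05 was reached by 12 members, 30.8% of them, against 18.1% of all genes. Of the 39 members, 10 were higher at that level, where 10.7% of all genes tested were. Lower were 2 of the 39, where 7.49% of all genes tested were. Scaling by total counts alone, an alternative chosen after seeing the data, moved the median of all genes to -0.17, the median of the members to 0.00 and their split to 20 higher and 19 lower. Relative to the median of all genes the members' median was 0.17 with TMM and 0.18 with total counts. The medians by role were 0.04 for initiation, -0.02 for the lipid kinase, -0.02 for membrane supply, 0.12 for conjugation, 0.30 for LC3 and GABARAP, 0.21 for cargo receptors and 0.32 for mitophagy.

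**Figure D1:**
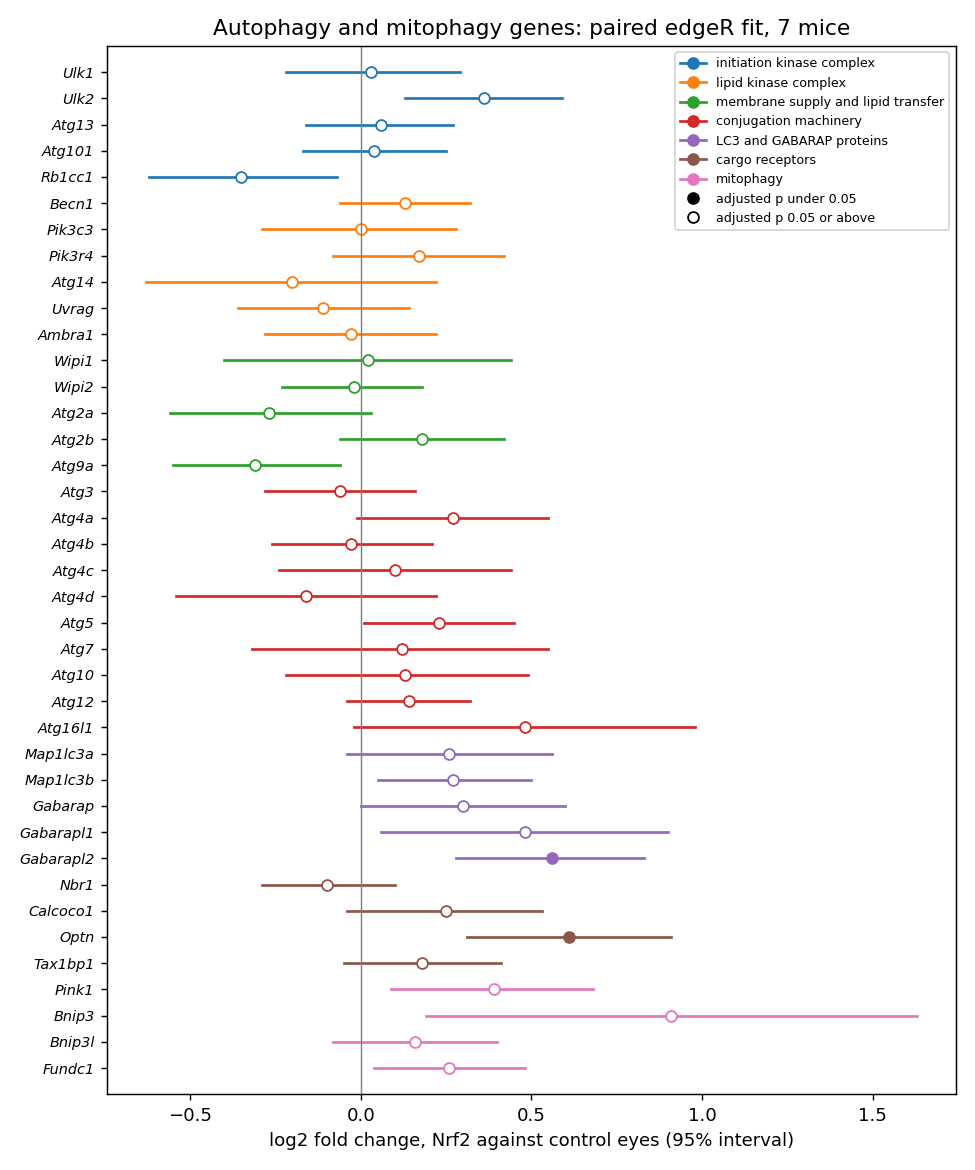
Log2 fold change of each of the 39 genes, Nrf2 against control eyes, from the paired edgeR fit over 7 mice. Points are estimates, lines are 95% intervals, colors give the role, and filled points mark an adjusted p below 0.05. Gabarapl2 (0.56) and Optn (0.61) are the filled points, and the interval of Bnip3 (0.19 to 1.63) is the widest.

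For many of these genes the interval of the paired fit was narrow enough to bound the change. The 95% interval of the log2 fold change lay within 0.5 of 0 for 21 of the 39 members, and did so for 25.3% of all genes tested. It lay within 1 of 0 for 38 members, with Bnip3 the exception, and it included 0 for 27. The bound of 0.5 is close to the estimates of Gabarapl2 (0.56) and Optn (0.61). These intervals hold for TMM scaling, and total counts moved the members' median from 0.13 to 0.00. The standard error (SE) was 0.08 to 0.32 with a median of 0.11. Between eyes of one group the members also varied little. The median SD of their log2 values was 0.16 in the controls and 0.21 in the Nrf2 eyes, beside 0.36 and 0.39 over 15523 genes with a count in every library. By control level per kilobase, the members' median percentile among all genes tested was 74.8. Neither the intervals nor the SDs were compared with those of genes of like level.

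The upstream sequences of Gabarapl2 and Optn are shown because they were the members past the threshold, and that of Bnip3 because it had the largest estimate. They are the 250 bases before the RefSeq transcript start, written 5′ to 3′ in the direction of the gene, from build GRCm38.p6. Capitals mark matches to CACGTG, the E-box core bound by basic helix-loop-helix factors such as TFEB. No capitals appear in the sequences of Gabarapl2 and Optn, since neither CACGTG nor TGACNNNGC, the core of the antioxidant response element that Nrf2 binds, is found in them.
Gabarapl2, chr8:111940453-111940702, plus strand: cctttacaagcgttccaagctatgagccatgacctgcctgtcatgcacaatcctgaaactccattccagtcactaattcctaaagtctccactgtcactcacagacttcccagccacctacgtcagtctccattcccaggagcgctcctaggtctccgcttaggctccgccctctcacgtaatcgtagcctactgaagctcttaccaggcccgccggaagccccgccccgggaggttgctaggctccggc
Optn, chr2:5064118-5064367, minus strand: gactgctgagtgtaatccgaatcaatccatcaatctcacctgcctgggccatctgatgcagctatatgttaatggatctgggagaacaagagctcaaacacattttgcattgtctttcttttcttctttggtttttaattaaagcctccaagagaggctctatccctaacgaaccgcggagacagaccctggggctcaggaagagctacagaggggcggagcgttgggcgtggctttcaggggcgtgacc
Bnip3, chr7:138909507-138909756, minus strand: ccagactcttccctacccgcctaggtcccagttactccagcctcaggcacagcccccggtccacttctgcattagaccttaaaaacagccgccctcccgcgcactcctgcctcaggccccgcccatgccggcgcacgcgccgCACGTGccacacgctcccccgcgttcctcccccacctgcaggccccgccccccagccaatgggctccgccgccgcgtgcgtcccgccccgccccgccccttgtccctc

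Both motifs were searched on both strands in windows of 300 bases, from 250 before to 50 after each RefSeq start, and 32 of the 39 members had such a window. TGACNNNGC was in the windows of 4 of these 32 genes, Atg13, Tax1bp1, Map1lc3b and Ulk2, and in 12.4% of all 32851 windows. By window the share was 11.1% of 36 for the members. CACGTG was in those of 5 genes, Atg3, Atg5, Atg7, Atg14 and Bnip3, which is 13.9% of the 36 windows, against 7.15% of all windows. The match in Bnip3 lay 108 to 103 bases before the start. A match is a description of the letters and not of binding, and these windows hold no distal enhancers.

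The LC3 and GABARAP proteins are the ubiquitin-like modifiers that are coupled to the autophagosome membrane and bind cargo receptors there. Gabarapl2 was at 147 to 161 normalized CPM in the control eyes, with a median of 156.5, and at 158 to 274.5 in the Nrf2 eyes, with a median of 227. All 7 control eyes lay within a narrow band, 6 Nrf2 eyes lay above it, and the Nrf2 eye of mouse 4 lay inside it. The group means were 154 ± 5.59 (SD, n = 7) and 230.0 ± 40.1 (SD, n = 7), and the log2 fold change was 0.56 (SE 0.12, adjusted p = 0.0434, higher in 6 of 7 mice). Without mice 3 and 4 it was 0.63 (adjusted p = 0.0395), the member that still passed.

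Gabarapl1, a close relative of Gabarapl2, was at 83.2 to 167.5 normalized CPM in the control eyes (median 131) and at 123 to 232 in the Nrf2 eyes (median 195). The groups overlapped, and within mouse 4 the control eye was the higher one. Its fitted log2 change was 0.48 (SE 0.18, adjusted p = 0.217, higher in 6 of 7 mice). Gabarapl1 passed the threshold when mouse 4 was left out, at 0.63 (adjusted p = 0.0245), and not when mice 3 and 4 were both left out (adjusted p = 0.0952). A noncoding gene on the opposite strand, not analysed here, covers 28.3% of its exonic bases.

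Map1lc3b, which encodes the LC3 form commonly used to mark autophagosomes, was at 253.5 to 340.3 normalized CPM in the control eyes (median 271) and at 310.1 to 372 in the Nrf2 eyes (median 354). The 4 highest Nrf2 eyes lay above every control. The log2 fold change was 0.27 (SE 0.10, adjusted p = 0.188, higher in 6 of 7 mice) and 0.28 without mice 3 and 4 (adjusted p = 0.286). Map1lc3b passed in DESeq2 (adjusted p = 0.00761) and, unpaired, without control 3 and Nrf2 4 (edgeR, adjusted p = 0.0307), and not in voom (adjusted p = 0.0849). Map1lc3a, its paralog, was at 233 to 318 in the control eyes (median 289.6) and at 232 to 392.5 in the Nrf2 eyes (median 365). Its Nrf2 eyes spanned the whole control range, since the Nrf2 eye of mouse 2 was the lowest of the 14 libraries, and its fitted log2 change was 0.26 (SE 0.13, adjusted p = 0.341, higher in 6 of 7 mice). Gabarap was at 205 to 284 in the control eyes (median 278) and 241 to 395 in the Nrf2 eyes (median 326), with a log2 fold change of 0.30 (adjusted p = 0.268).

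All 5 LC3 and GABARAP genes were fitted higher with TMM, with relative log expression (RLE), upper-quartile and total-count scaling, and each was higher in 6 of 7 mice. Total counts alone left Gabarapl2 at 0.43 (adjusted p = 0.0926) and no member past the threshold, with 3.15% of all genes called in that fit.

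Per kilobase of transcript these were among the most abundant members. Map1lc3a was at 254 ± 32.8 normalized CPM per kilobase in the control eyes (SD, n = 7) and Gabarap at 192 ± 25.3, with overlapping ranges. Map1lc3b followed at 113 ± 11.9, below every Gabarap value, and Gabarapl2 at 92.0 ± 3.33, below every Map1lc3b value. Gabarapl1 was the lowest at 72.2 ± 15.9 and overlapped Gabarapl2. In the Nrf2 eyes the means were 306, 238.5, 136, 137 and 101 in the same order of genes, so Gabarapl2 reached the level of Map1lc3b, with overlapping ranges. The order rests on the transcript length used, which was 1112 bases for Map1lc3a and 2532 for Map1lc3b.

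**Figure D2:**
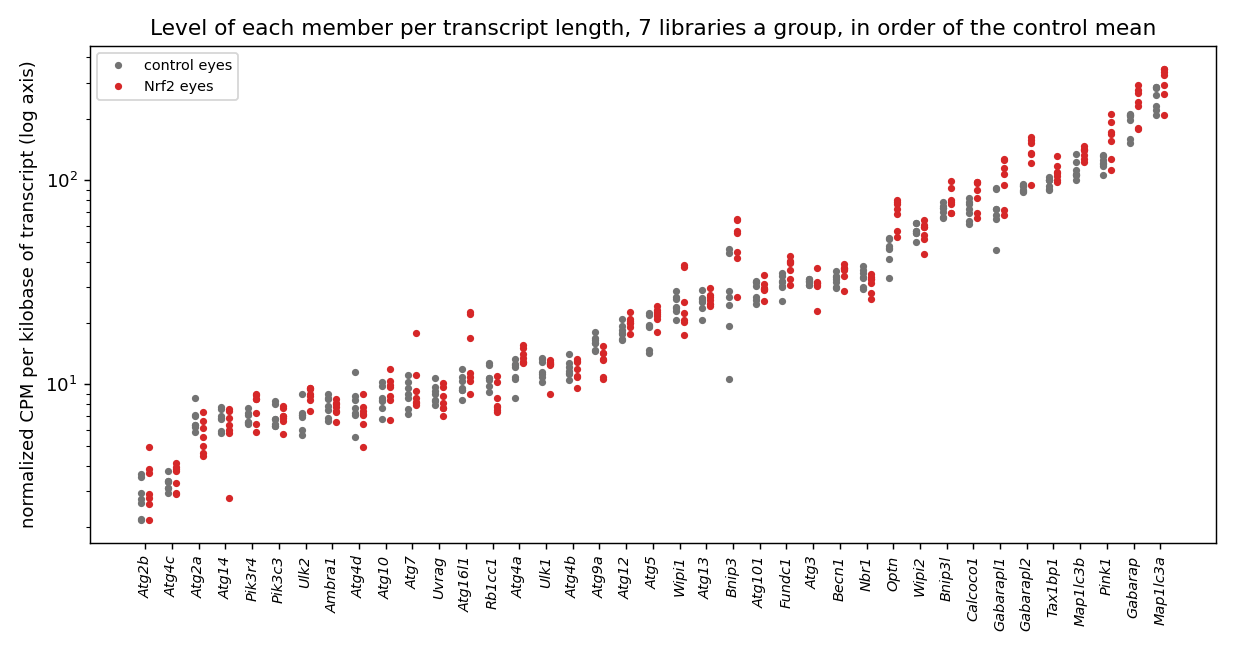
Normalized CPM per kilobase of transcript (log axis) of the 39 genes, 1 point per library, grey for the 7 control eyes and red for the 7 Nrf2 eyes, ordered by the control mean. The levels run from 2.83 for Atg2b to 254 for Map1lc3a in the controls, and Optn is the gene whose red and grey points do not overlap.

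Cargo receptors bind both ubiquitin-tagged or other cargo and LC3 or GABARAP proteins. Optn encodes optineurin, a receptor for ubiquitinated mitochondria and bacteria. It was at 87.2 to 136 normalized CPM in the control eyes (median 121.5) and at 138.5 to 208 in the Nrf2 eyes (median 188). Every Nrf2 eye was above every control eye, with the Nrf2 eye of mouse 4 the closest to the controls. This was the 1 member whose groups did not overlap, and 1.6% of all genes tested had no overlap. The means were 119 ± 17.04 (SD, n = 7) and 181 ± 27.9 (SD, n = 7), and the log2 fold change was 0.61 (SE 0.13, adjusted p = 0.0444, higher in 7 of 7 mice). Without mice 3 and 4 the log2 fold change was 0.69 and the adjusted p 0.0550, so the call was lost while the estimate rose.

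Tax1bp1, a ubiquitin-binding receptor, was at 318 ± 19.1 normalized CPM (SD, n = 7) in the control eyes and 362 ± 38.0 in the Nrf2 eyes, with a log2 fold change of 0.18 (adjusted p = 0.378). Calcoco1, a receptor for the endoplasmic reticulum and the Golgi, was at 203 ± 21.6 and 242 ± 39.2, with a log2 fold change of 0.25 (adjusted p = 0.342). Calcoco1 passed in voom, at 0.33 (adjusted p = 0.0365), and not in DESeq2 (adjusted p = 0.240). Nbr1, a receptor for ubiquitinated aggregates and peroxisomes, was at 141 to 181 in the control eyes (median 160.5) and at 125 to 167 in the Nrf2 eyes (median 158). Nbr1 was the 1 receptor fitted lower, at -0.10 (SE 0.09, adjusted p = 0.574), with the Nrf2 eye below its fellow in 6 of 7 mice. The 95% interval of Nbr1 was -0.29 to 0.10.

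In mitophagy, PINK1 kinase builds up on damaged mitochondria and recruits the ubiquitin pathway, while BNIP3, BNIP3L (also called NIX) and FUNDC1 are receptors in the outer mitochondrial membrane. Pink1 was at 253 to 318 normalized CPM in the control eyes (median 290.1) and at 266 to 504 in the Nrf2 eyes (median 400.5). The Nrf2 eyes of mice 2 and 4 lay among the controls and the other 5 lay above all of them. Its fitted log2 change was 0.39 (SE 0.13, adjusted p = 0.163, higher in 5 of 7 mice). Without mouse 4 it passed the threshold, at 0.46 (adjusted p = 0.0367), and without mice 3 and 4 it did not, at 0.43 (adjusted p = 0.168).

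Bnip3, whose transcription is known to rise in low oxygen, had the largest estimate of all members and the widest spread. It was at 18.7 to 80.4 normalized CPM in the control eyes (median 46.9) and at 47.3 to 113 in the Nrf2 eyes (median 96.6). The Nrf2 eye was higher in 6 mice, by 0.55 to 2.37 on the log2 scale, and the difference in mouse 4 was -0.77. Over 7 mice the fitted change was 0.91 (SE 0.32, adjusted p = 0.175). It was 1.18 without mouse 4 (adjusted p = 0.0188) and 1.22 without mice 3 and 4 (adjusted p = 0.0535). An antisense gene on the opposite strand, not analysed here, covers 22.25% of the exonic bases of Bnip3. Within the control group Bnip3 was lowest in mouse 6, the library with the highest surface epithelium sum (50600 CPM), and highest in mouse 4, the library with the lowest (1586 CPM). Gabarapl1 was likewise lowest in control 6 and highest in control 4. The part of surface epithelium in these values was not tested.

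Bnip3l was at 212 to 254 normalized CPM in the control eyes (median 236) and at 225 to 322 in the Nrf2 eyes (median 253). The groups overlapped, and its fitted log2 change was 0.16 (SE 0.10, adjusted p = 0.445, higher in 5 of 7 mice). A processed pseudogene of Bnip3l, with which it may share reads, was at 0.968 to 3.13 CPM. Fundc1 was at 61.9 ± 6.13 in the control eyes and 74.1 ± 8.58 in the Nrf2 eyes, with a log2 fold change of 0.26 (adjusted p = 0.211, higher in 6 of 7 mice). All 4 mitophagy genes were fitted higher with every scaling tried, and none passed in edgeR's paired test over 7 mice. In that test 3 reached an unadjusted p below 0.05, all higher, beside 18.1% of all genes in either direction and 10.7% as higher. DESeq2 called 2 of the 4, Pink1 and Bnip3, beside 11.9% of all genes in either direction and 7.6% as higher. Voom called these and Fundc1, beside 15.9% and 9.74%.

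**Figure D3:**
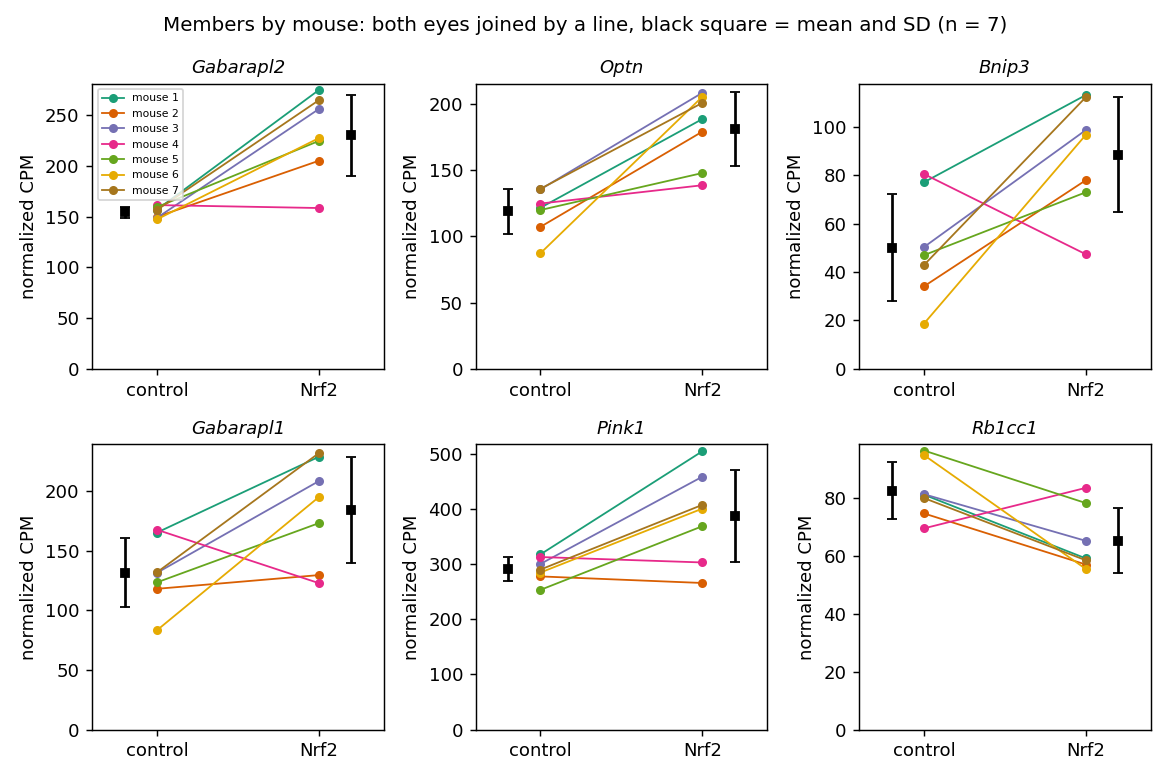
Normalized CPM of Gabarapl2, Optn, Bnip3, Gabarapl1, Pink1 and Rb1cc1 in the control and Nrf2 eye of each of the 7 mice, joined by a line, with the mean and SD of each group as a black square. The Nrf2 eye of mouse 4 is the lowest Nrf2 value of Gabarapl2, Optn, Bnip3 and Gabarapl1 and the highest of Rb1cc1.

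The initiation complex joins the kinases ULK1 or ULK2 to ATG13, ATG101 and the scaffold FIP200, which Rb1cc1 encodes. Rb1cc1 was at 69.7 to 96.6 normalized CPM in the control eyes (median 81.3) and at 55.6 to 83.7 in the Nrf2 eyes (median 59.3). In 5 mice the Nrf2 eye lay below every control, and in mouse 4 the Nrf2 eye was the higher one. The log2 fold change was -0.35 (SE 0.12, adjusted p = 0.175, lower in 6 of 7 mice), the lowest estimate among the members, and it passed the threshold without mouse 4, at -0.45 (adjusted p = 0.0220). Without mice 3 and 4 Rb1cc1 was at -0.47 and did not pass (adjusted p = 0.0628).

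Ulk1 was at 53.7 to 70.1 normalized CPM in the control eyes (median 59.9) and at 47.0 to 68.4 in the Nrf2 eyes (median 65.8). The fitted change was 0.03 (SE 0.11, adjusted p = 0.915), with a 95% interval of -0.22 to 0.29. Ulk2 was at 40.1 ± 6.12 in the control eyes and 51.0 ± 4.57 in the Nrf2 eyes, and it was higher in 7 of 7 mice, with a log2 fold change of 0.36 (adjusted p = 0.106), and 0.43 without mice 3 and 4 (adjusted p = 0.108). The same direction in all 7 mice was seen in 3 members as higher (Ulk2, Atg5 and Optn), against 5.65% of all genes, and in 1 as lower (Atg9a), against 2.92%. Atg13 and Atg101 had log2 fold changes of 0.06 and 0.04, and total-count scaling turned both below 0.

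The lipid kinase complex makes phosphatidylinositol 3-phosphate at the site of autophagosome formation. Its regulatory subunit Becn1 was at 129.5 to 156 normalized CPM in the control eyes (median 144) and at 126 to 171 in the Nrf2 eyes (median 160.0). The Nrf2 eyes of 5 mice lay above all controls and that of mouse 2 lay below them. The log2 fold change was 0.13 (SE 0.08, adjusted p = 0.438, higher in 6 of 7 mice). It was -0.00 with total-count scaling. Of the exonic bases of Becn1, 43.9% are shared with Cntd1 on the opposite strand. The sources used here do not say that strand was kept, and Cntd1 was at 0 to 1.27 CPM. The catalytic subunit Pik3c3 had a log2 fold change of 0.00 with a 95% interval of -0.29 to 0.28. The other 4 are the regulatory subunit Pik3r4 (0.17), the Beclin-binding regulator Ambra1 (-0.03), Uvrag of the endosomal form of the complex (-0.11) and Atg14, which directs it to autophagosomes (-0.20), and their adjusted p was from 0.452 to 0.922. In this complex 0 genes were past the threshold and 0 had an unadjusted p below 0.05 in edgeR's paired test, and neither DESeq2 nor voom called any.

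Membrane for the growing autophagosome is carried by ATG9A vesicles and by the lipid transfer proteins ATG2A and ATG2B, which are placed by WIPI proteins. Atg9a was at 59.8 to 74.5 normalized CPM in the control eyes (median 65.9) and at 43.5 to 63.2 in the Nrf2 eyes (median 54.7). In 6 mice the Nrf2 eye was below every control, and it was the lower eye in 7 of 7 mice. Its fitted log2 change was -0.31 (SE 0.11, adjusted p = 0.185), and -0.38 without mice 3 and 4 (adjusted p = 0.176). A noncoding gene on the same strand, not analysed here, covers 31.8% of its exonic bases. Atg2a was at 37.2 to 54.6 in the control eyes (median 40.4) and at 28.3 to 46.9 in the Nrf2 eyes (median 35.3). It was the lower eye in 6 of 7 mice, with a fitted log2 change of -0.27 (SE 0.13, adjusted p = 0.325). Atg2b (0.18), Wipi1 (0.02) and Wipi2 (-0.02) had adjusted p from 0.392 to 0.963, and Wipi1 varied more among Nrf2 eyes (53.3 ± 17.5 normalized CPM) than among controls (50.5 ± 5.40).

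The conjugation machinery works like a ubiquitin cascade. ATG7 is the activating enzyme, ATG3 and ATG10 are conjugating enzymes, ATG12 joined to ATG5 with ATG16L1 places the modifier, and the ATG4 proteases trim and recycle it. Atg5 was at 33.4 to 52.9 normalized CPM in the control eyes (median 45.7) and at 42.7 to 56.8 in the Nrf2 eyes (median 51.8). Within mice the Nrf2 eye was higher by 0.04 to 0.58 on the log2 scale in 7 of 7, and the fitted log2 change was 0.23 (SE 0.10, adjusted p = 0.260). Atg7 was at 26.9 to 41.9 in the control eyes (median 33.8) and at 29.7 to 67.0 in the Nrf2 eyes (median 32.4). The highest Atg7 value was that of Nrf2 2, and the log2 fold change was 0.12 (SE 0.19, adjusted p = 0.790). Leaving out mouse 2 turned Atg7 to -0.07.

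Atg16l1 had the largest estimate of this group, 0.48, with an SE of 0.22 (adjusted p = 0.298). Its Nrf2 eyes split, with 3 above all controls and the rest among them. The means of Atg16l1 were 31.3 ± 3.65 and 46.1 ± 18.04 normalized CPM. The remaining 7 conjugation genes were Atg3 (-0.06), Atg4a (0.27), Atg4b (-0.03), Atg4c (0.10), Atg4d (-0.16), Atg10 (0.13) and Atg12 (0.14), with adjusted p from 0.287 to 0.924. Atg4d shares 19.3% of its exonic bases with Kri1 on the opposite strand, which was at 12.2 to 25.02 CPM, so the value of Atg4d is less certain. No conjugation gene was called by edgeR, DESeq2 or voom, and 1, Atg5, had an unadjusted p below 0.05 in edgeR's paired test.

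**Figure D4:**
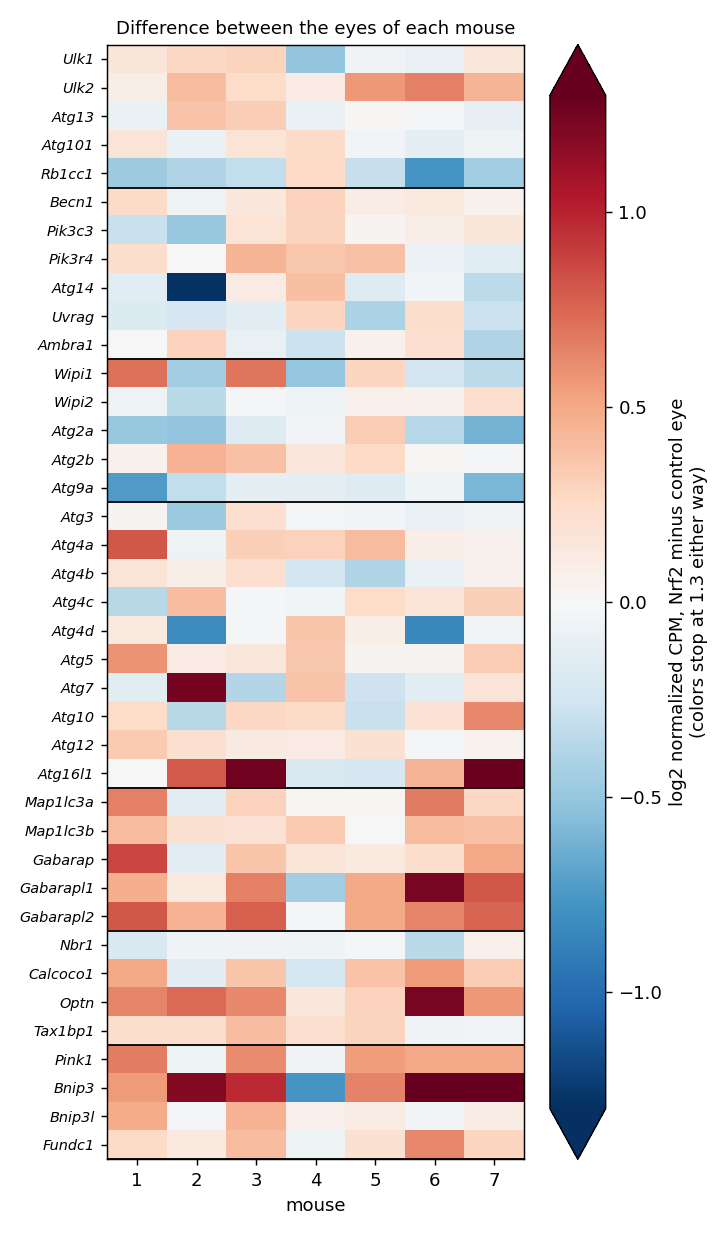
Difference in log2 normalized CPM between the Nrf2 and control eye of each of the 7 mice (columns) for the 39 genes (rows, in blocks by role, from initiation at the top to mitophagy at the bottom). Red is higher in the Nrf2 eye, and Bnip3 in mouse 6 (2.37) is the largest difference. The LC3 and GABARAP block is red in most columns, with the exceptions in mice 2, 4 and 5.

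The members did not move alike in every mouse. Between 19 (mouse 2) and 29 (mouse 3) of the 39 were higher in the Nrf2 eye. In mouse 2 this was 48.7% of members, near the 47.3% of all genes with a count in every library. In mouse 3 it was 74.4% against 45.7%. The median member difference was -0.02 in mouse 2 and 0.24 in mouse 3, beside -0.05 over all those genes in both mice. In mouse 4 the share was 53.8% of members against 55.6% of all genes. Mouse 2 also held the library with the fewest counts, Nrf2 2, in which pseudogenes took 2.55% of counts against 1.06% to 1.17% in the other libraries. Nrf2 2 gave the lowest Atg14 and the highest Atg7 value of the Nrf2 eyes.

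The other genes of the pathway were taken from 4 further lists of 92 genes, of which 91 passed the filter on low counts. Of these, 6 passed the threshold as higher, which is 6.59%, and 0 as lower, against 2.94% and 0.491% of all genes. At an unadjusted p below 0.05, 19 of the 91 were higher and 1 was lower, against 10.7% and 7.49% of all genes. DESeq2 called 12, which is 13.2%, and voom called 16, which is 17.6%, all of them higher. Of all genes, DESeq2 called 11.9% in either direction and 7.6% as higher, and voom 15.9% and 9.74%. Whether these shares differ beyond chance was not tested. By list, 4 of 27 were among other autophagosome machinery, 1 of 7 among selective autophagy receptors, 0 of 23 among other mitophagy and mitochondrial dynamics genes and 1 of 34 among nutrient and energy signals. In the list with 0 calls, 5 genes had an unadjusted p below 0.05, all 5 higher, which is 21.7%. Of all genes, 18.1% did so in either direction and 10.7% as higher.

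Sqstm1, the ubiquitin-binding cargo receptor that also binds the Nrf2 inhibitor KEAP1, was at 464 to 692 normalized CPM in the control eyes (median 567) and at 661 to 1559 in the Nrf2 eyes (median 1158). Nrf2 4 was the lowest Nrf2 eye and lay among the controls, while the other 6 lay above all of them. Its fitted log2 change was 0.92 (SE 0.18, adjusted p = 0.0298, higher in 7 of 7 mice). Wdr45, a WIPI-family protein that binds phosphatidylinositol 3-phosphate, was at 22.2 to 32.8 in the control eyes (median 27.3) and at 29.2 to 80.3 in the Nrf2 eyes (median 53.5). Its fitted log2 change was 1.05 (SE 0.15, adjusted p = 0.0130, higher in 7 of 7 mice).

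Tmem41b, a lipid scramblase of the endoplasmic reticulum, rose from 78.8 ± 9.38 to 119.9 ± 24.8 normalized CPM (SD, n = 7 each), by 0.59 on the log2 scale (SE 0.12, adjusted p = 0.0345, higher in 7 of 7 mice). Vps41, a subunit of the HOPS complex that tethers vesicles to lysosomes, rose from 110.0 ± 7.69 to 163 ± 24.7, by 0.56 (SE 0.10, adjusted p = 0.0241, higher in 7 of 7 mice), with no overlap between groups. Ccpg1, a receptor for autophagy of the endoplasmic reticulum, rose from 109 ± 15.7 to 181 ± 38.6, by 0.72 (SE 0.14, adjusted p = 0.0322, higher in 6 of 7 mice). Prkaa2, a catalytic subunit of the energy sensor AMPK, rose from 36.0 ± 4.25 to 83.3 ± 26.2, by 1.15 (SE 0.16, adjusted p = 0.0110, higher in 7 of 7 mice). Prkaa2 passed the threshold in all 17 alternatives and Wdr45 in 15, whereas Gabarapl2 and Optn each passed in 7. Without mice 3 and 4 the call of Tmem41b was lost (adjusted p = 0.0600) while its estimate was 0.62, and those of the other 5 were not.

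**Figure D5:**
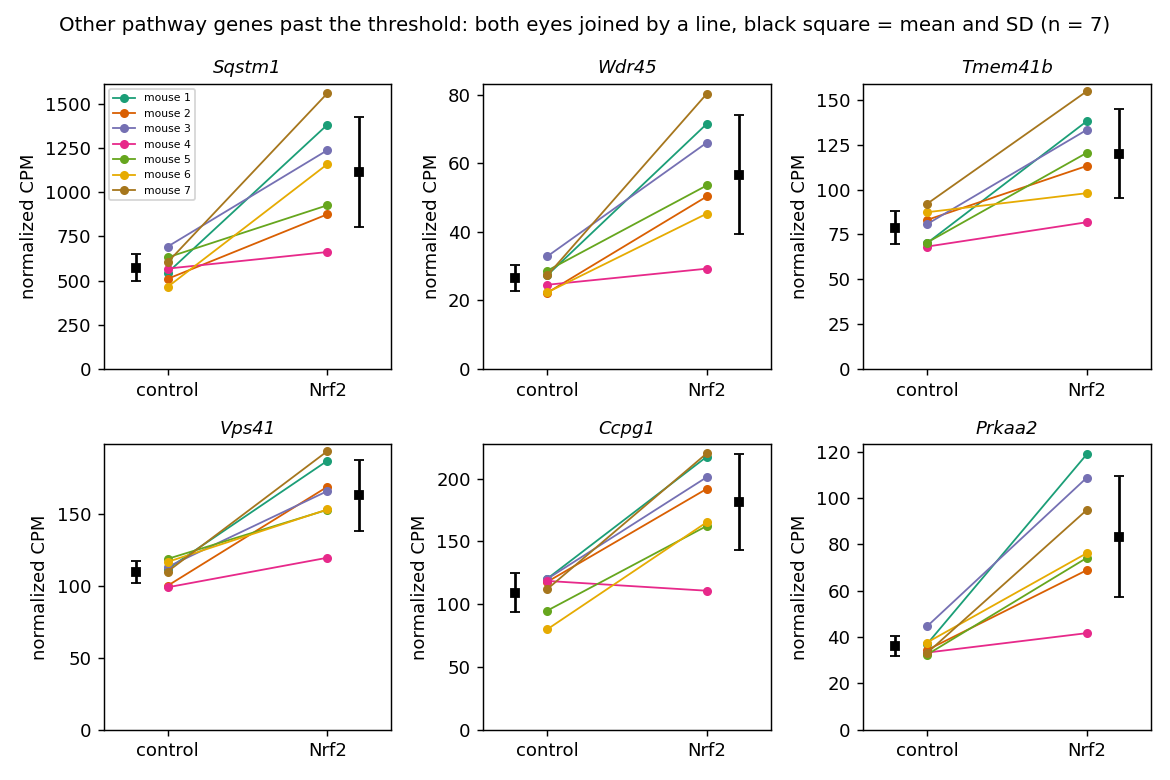
Normalized CPM of the 6 pathway genes outside the 39 that passed the threshold, in the control and Nrf2 eye of each of the 7 mice, joined by a line, with the mean and SD of each group as a black square. The Nrf2 eye of mouse 4 is the lowest Nrf2 value in all 6 panels.

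The number of members called rested on which mice entered the fit. Leaving out mouse 4 raised it to 6 (Gabarapl1, Gabarapl2, Optn, Pink1 and Bnip3 higher, Rb1cc1 lower), while the share of all genes called rose from 3.43% to 12.6%. Leaving out mouse 1, 2, 3, 5, 6 or 7 left 0 members past the threshold in edgeR's test, with 5 to 14 at an unadjusted p below 0.05 and 0.681% to 2.39% of all genes called. In these 6 fits the adjusted p was 0.0687 to 0.154 for Gabarapl2 and 0.0772 to 0.145 for Optn. Without mice 3 and 4 there was 1, Gabarapl2, beside 4.59% of all genes. Of the 39 members, 28 passed in neither the 7-mouse fit nor any of the 17 alternatives. With the alternatives rounded to 2 decimals and 0.00 counted as a change, the sign was the same in all of these for 26 members. Of these, 19 were higher and 7 lower. Atg10, at 0.00 with total counts and not below 0 in any fit, was left out by that rule.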

How the data were processed

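Per the labels, RNA of rd1 mouse RPE was amplified with a low-input kit and sequenced in 2 runs, with no run given per library. The authors deposited estimated counts for each gene as whole numbers, without normalization. The submitters' processing notes name Salmon 0.9.1, and the study's methods also STAR with featureCounts, on mm10 with Ensembl annotation. Which of these gave the deposited counts is not given in the sources used here. The paired fit follows the labels, which number both eyes by animal. The labels give 7 pairs, more than the study's methods count at this age, and which pair was then left out is not given in the sources used here, so all 7 were used. Over 10323 genes, deviations from group means correlated by 0.10, 0.05, 0.03, -0.50, 0.40, -0.32 and 0.15 between the eyes of mice 1 to 7.

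Genes were matched by identifier to GENCODE M21, which gave 34401 symbols. Levels per kilobase used the longest principal transcript. Genes were tested in edgeR 4.0.16 under R 4.3.3 by quasi-likelihood, in a model of treatment blocked by mouse, with TMM normalization, filterByExpr with a minimum count of 10 and Benjamini-Hochberg adjustment over 16289 genes, at a threshold of 0.05. SEs were derived from the F statistic, with 6 residual degrees of freedom and 2.68 from the prior. The human NFE2L2 row was kept out of the tests. The fits were tested on simulated data, where DESeq2 called more false genes. The limit on false calls in that test was therefore set for edgeR and voom only. DESeq2 1.42.0, voom in limma 3.58.1, other scalings and filters, a fit without the mouse term and fits without single mice were alternatives.

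The members and lists were chosen with earlier results of these data known. Values in every library are described for members past the threshold with or without mice 3 and 4, the 3 with the largest rise and the 3 with the largest fall, and 12 members set by name. Other members were named to account for all 39, and of the other lists the genes past the threshold were named.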

Additional observations from a re-analysis of the deposited data

Results flagged for a closer look

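Of 90 groups of 7 eyes examined (each of the 39 members and of the 6 named pathway genes, in either group), 4 held a value further from its neighbor than Dixon's 95% limit allows for 7 values, and chance gives about 1 in 20, or 4.5. Ulk1 was at 47.0 normalized CPM in Nrf2 4, below the other Nrf2 eyes at 65.1 to 68.4. Atg14 was at 10.3 in Nrf2 2, below the others at 21.5 to 28.3. Atg7 was at 67.0 in Nrf2 2, above the others at 29.7 to 41.7. Prkaa2 was at 44.5 in control 3, above the other controls at 32.4 to 37.6.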

How the results depend on the processing

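With the replicate block dropped, so that the eyes of a mouse were not paired, 2 members, 1100 of all genes and 10 other pathway genes passed, against 2, 559 and 6 with it. Member calls moved to 1 with RLE, 0 with upper-quartile scaling, 0 without a filter, 6 with DESeq2, 9 with voom, 1 without mice 3 and 4, 5 without the block, control 3 and Nrf2 4, and 0 with total counts, which was added after seeing the data. The shares of all genes called in these fits were, in that order, 3.38%, 2.92%, 1.19%, 11.9%, 15.9%, 4.59%, 9.37% and 3.15%. Single mice left out gave 0 to 6 members, 111 to 2052 of all genes and 1 to 11 other pathway genes, with mouse 4 giving the highest of each. Counts over all genes moved to 347 without a filter, 1943 with DESeq2, 2594 with voom and 1532 without the block and both libraries. Those of the other pathway genes moved to 2, 12, 16 and 13 in the same order, and to 3 with total counts, where 313 genes were higher and 200 lower against 479 and 80 with TMM. The causes were not tested.

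Estimates near 0 changed sign. With total counts Ulk1 was at -0.10, Atg13 -0.07, Atg101 -0.09, Becn1 -0.00, Wipi1 -0.11, Atg4c -0.03 and Atg7 -0.02. Without mice 3 and 4 Atg101 was at -0.03, Ambra1 0.04 and Wipi1 -0.01. Voom put Pik3c3 at 0.04, Wipi2 at 0.02, Atg3 at 0.03 and Atg7 at -0.10, and Pik3c3 was at 0.01 with RLE, 0.00 without a filter and 0.01 with DESeq2. Leaving out single mice gave -0.01 to 0.12 for Ulk1, -0.05 to 0.08 for Pik3c3, -0.08 to 0.03 for Ambra1, -0.09 to 0.11 for Wipi1, -0.06 to 0.03 for Wipi2, -0.10 to 0.01 for Atg3, -0.06 to 0.04 for Atg4b and -0.07 to 0.20 for Atg7. Of the estimates of single members under alternatives, 594 kept their sign and their side of the threshold, 18 became significant, 20 lost significance and 31 changed sign.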
